A study of Arabidopsis thaliana with 2 samples.

Results

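The genes described are 6 Arabidopsis thaliana loci whose proteins repair ultraviolet (UV) damage with the energy of light, or sense blue light or UV-B: the photolyases UVR2 and UVR3, the cryptochromes CRY1, CRY2 and CRY3, and the UV-B receptor UVR8. They were chosen by locus, and every listed region that overlaps one of them, or lies within 1 kb of either end, was taken from the authors' deposited tables of differentially methylated regions. These rows number 33 of 83934. The loci are 6 of 27444 protein-coding genes of the nuclear chromosomes, and UVR3 had no row. The study profiled DNA methylation by whole-genome bisulfite sequencing in seedlings grown in vitro for 10 days. Bisulfite converts unmethylated cytosines, so the share of unconverted reads gives the methylation level, from 0 to 1. By the labels, Col wild type and ddb2-3 have 1 library each, and ddb2-3 is an insertion allele (DsLoxHs195_05H) of DDB2, which encodes a recognition factor of global genome repair. A second set of tables compares Col with a line called cen, whose genotype the labels used here do not describe. Each of the 2 comparisons has a table for the CG, CHG and CHH contexts, where H is any base but G. A row gives 1 or more adjoining windows of 100 bp and the difference in level over them, and rows below an absolute difference of 0.1 are absent. Levels per library, reads and p-values are not given, so the depth behind each value is unknown, and with 1 library a line no test across plants was possible. Both comparisons use the same Col, so a place listed in both tables is not independent evidence, and a place listed in 1 table alone is not shown to be unaltered in the other.

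Nucleotide excision repair removes UV photoproducts in the dark, and DDB2 recognises such lesions for that pathway. Photolyases reverse the same lesions directly, using a flavin cofactor and absorbed light. Cryptochromes share their ancestry and fold with photolyases, and in plants CRY1 and CRY2 act as blue-light receptors. UVR8 is unrelated in sequence. It is a beta-propeller protein whose dimer comes apart in UV-B and then binds the ubiquitin ligase component COP1. Methylation in the body of transcribed Arabidopsis genes is found mainly in the CG context, while CHG and CHH methylation marks transposons and repeats.

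In CG, 5 of the 6 loci had a listed region in each comparison, and UVR3 had none. Counted in the same way, 57.7% of all protein-coding genes had one for ddb2-3 and 60.1% for cen. The authors' deposited tables held 12 CG rows at the loci for ddb2-3, of which 6 were higher and 6 lower than Col. They held 16 for cen, of which 10 were higher and 6 lower. A positive deposited value was read as Col above the other line, so "lower" stands for a positive value and "higher" for a negative one. That reading was inferred and not stated by the files, and if it is wrong every direction is exchanged. Higher CG regions lay at 5 of the 6 loci for ddb2-3, against 39.0% of all protein-coding genes, and lower ones at 3, against 43.0%. At CRY2 and CRY3 the higher region of ddb2-3 lay outside the gene, at CRY3 inside the neighbouring gene AT5G24840. For cen both kinds lay at 5 of the 6 loci, against 46.0% for higher and 40.1% for lower regions. These shares are over genes of every length, and the share with a CG region rose with gene length. The loci run from 2640 to 5084 bp. The median absolute difference of the CG rows was 0.254 for ddb2-3 and 0.204 for cen, and over all nuclear CG rows it was 0.232 in either comparison. CHG and CHH rows lay at UVR2 and CRY1, and all of these were outside the gene.

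**Figure D1:**
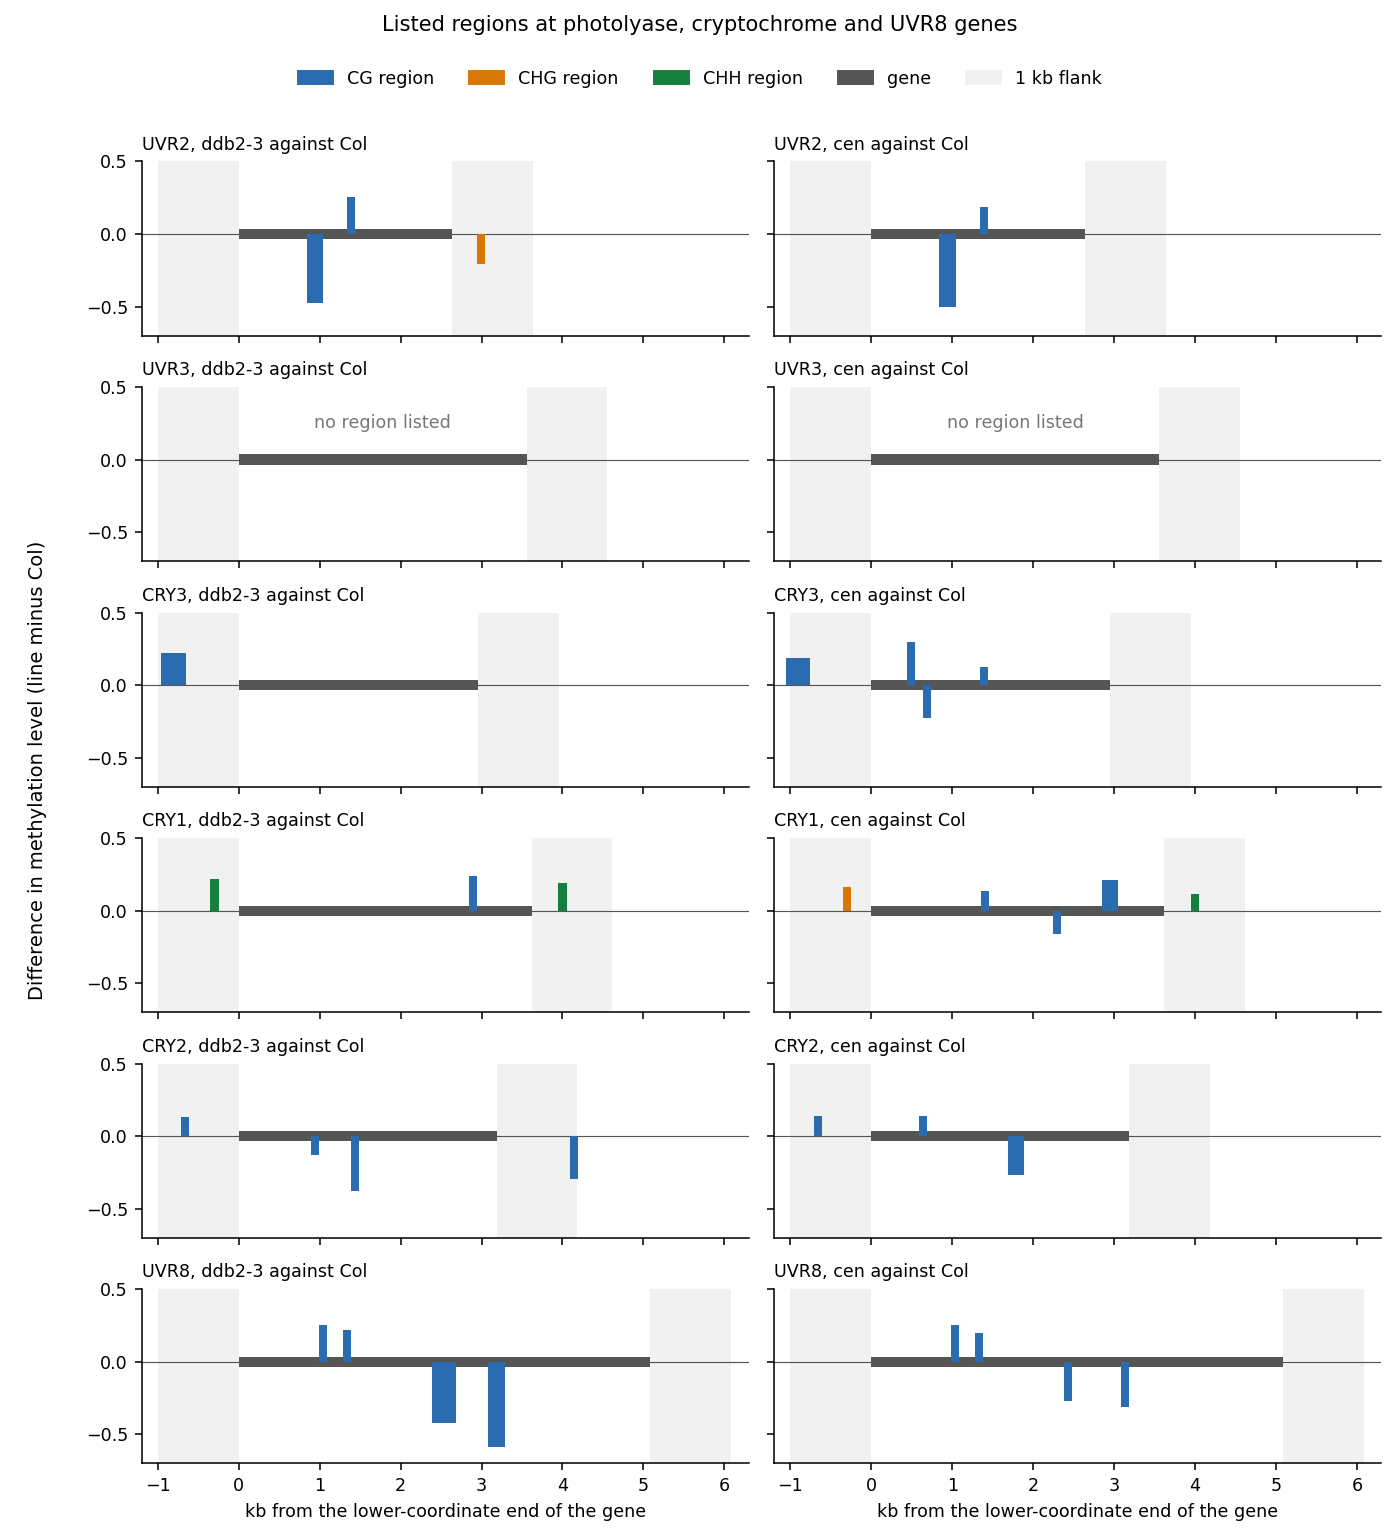
Regions listed by the authors at each locus for ddb2-3 (left) and cen (right), placed by distance in kb from the lower-coordinate end of the gene. Bar height is the difference in methylation level, line minus Col (the deposited value with its sign turned), bar width is the length of the region, and colour is the context. UVR8 has 2 higher regions followed by 2 lower ones in both comparisons, and UVR3 has no region.

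UVR2 (AT1G12370, PHR1 in the gene table) encodes the photolyase that reverses cyclobutane pyrimidine dimers, the most frequent UV lesion. Inside the gene, a lower and a higher CG region lay close together, at the same places in both comparisons. The lower one, chromosome 1, 4207201 to 4207400 (TAIR10), was centred at 35.6% of the gene's length, counted from the lower-coordinate end. In the authors' deposited tables it was lower by 0.476 in ddb2-3 and by 0.504 in cen. The higher one, 4207701 to 4207800, lay at 52.7% of the gene, and the authors' deposited tables gave it as higher by 0.258 in ddb2-3 and by 0.189 in cen. Without replicates the gap between the lines at either place cannot be set against an error. Outside the gene, on the higher-coordinate side and in no annotated gene, the authors' deposited CHG table listed 4209301 to 4209400 as lower by 0.203 in ddb2-3. This was the only CHG row of ddb2-3 at the 6 loci, and 5.04% of all protein-coding genes had one. The cen table listed no CHG region there, and neither comparison listed a CHH region at UVR2.

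UVR3 (AT3G15620) encodes the photolyase for pyrimidine (6-4) photoproducts, the other main UV lesion. It had no row in any of the 6 tables, in the gene or within 1 kb. Of 3764 protein-coding genes of 3 to 4 kb, the length class of UVR3, 21.4% had no CG region for ddb2-3 and 20.1% had none for cen. The nearest CG row of ddb2-3 in the authors' deposited table lay in the nearby gene AT3G15640, chromosome 3, 5300501 to 5300600, lower by 0.367. That of cen lay in AT3G15605, 5290601 to 5290700, higher by 0.191 in the authors' deposited table. The nearest CHG row was the same place for both, 5285301 to 5285400, given in the authors' deposited tables as higher by 0.193 in ddb2-3 and by 0.188 in cen. The tables hold neither levels nor coverage, so an unmethylated UVR3, an equally methylated one and one not covered well enough to be called cannot be told apart.

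CRY3 (AT5G24850) encodes a cryptochrome of the DASH type, found in chloroplasts and mitochondria, with photolyase activity on single-stranded DNA. In ddb2-3 its gene held no listed region, and in cen it held 3 CG regions in the part nearer the lower-coordinate end. In the authors' deposited table for cen, chromosome 5, 8535701 to 8535800, was higher by 0.299, at 16.7% of the gene. The next, 8535901 to 8536000 at 23.4%, was lower by 0.225, and 8536601 to 8536700 at 47.1% was higher by 0.122, in the same authors' deposited table. Gain and loss thus lay 100 bp apart. Both comparisons also listed a region within 1 kb of CRY3 that lies inside the neighbouring gene AT5G24840. The authors' deposited tables gave it as 8534301 to 8534600, higher by 0.222, for ddb2-3, and as 8534201 to 8534500, higher by 0.186, for cen. It is the sole row behind the count of CRY3 for ddb2-3, and without flank regions that lie in another gene, 4 of the 6 loci had a CG region in that comparison.

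CRY1 (AT4G08920) encodes the blue-light receptor that acts mainly in the inhibition of hypocotyl growth under strong light. A higher CG region near its higher-coordinate end was listed in both comparisons. The authors' deposited tables gave chromosome 4, 5726501 to 5726600, as higher by 0.241 in ddb2-3, at 80.1% of the gene, and 5726501 to 5726700 as higher by 0.210 in cen, at 81.5%. For cen, the authors' deposited table also held 5725001 to 5725100, higher by 0.133 at 38.7%, and 5725901 to 5726000, lower by 0.160 at 63.6% of the gene. These last differences are among the smaller ones at the loci, and neither place was listed for ddb2-3.

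CRY1 was also the locus with non-CG regions on both sides, all higher and none in an annotated gene. On the lower-coordinate side, the window 5723301 to 5723400 was listed as CHH for ddb2-3, higher by 0.219, and as CHG for cen, higher by 0.163, in the authors' deposited tables. On the other side, the window 5727601 to 5727700 was listed as CHH for both, higher by 0.189 in ddb2-3 and by 0.114 in cen in the authors' deposited tables. The ddb2-3 values stand above the median of all nuclear CHH rows of that line, 0.125, while the cen value is below its median of 0.121. CRY1 was 1 of the 6 loci with a CHH region in each comparison, beside 7.66% of all protein-coding genes for ddb2-3 and 7.33% for cen. It was likewise the single locus with a CHG region for cen, beside 6.19% of genes. The identity of the CHH rows comes from the name of the table, since the rows themselves carry the tag CDMR. Just beyond 1 kb on the lower-coordinate side, the authors' deposited table for ddb2-3 listed a CG region, 5722301 to 5722500, higher by 0.379, which is not counted at CRY1.

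CRY2 (AT1G04400) encodes the blue-light receptor that is itself degraded in blue light and promotes flowering in long days. Its gene held lower CG regions in both comparisons, at different places. In the authors' deposited table for ddb2-3, chromosome 1, 1186401 to 1186500, was lower by 0.128 at 29.5% of the gene, and 1186901 to 1187000 was lower by 0.381 at 45.2%. For cen, the authors' deposited table gave 1187201 to 1187400 as lower by 0.268, at 56.2%, and 1186101 to 1186200 as higher by 0.136, nearer the lower-coordinate end. Outside the gene and in no annotated gene, the window 1184801 to 1184900 was higher by 0.134 in ddb2-3 and by 0.136 in cen in the authors' deposited tables. On the other side, near the limit of 1 kb, the authors' deposited table for ddb2-3 listed 1189601 to 1189700 as lower by 0.298, inside the neighbouring gene c-NAD-MDH1 (AT1G04410), which encodes a cytosolic malate dehydrogenase. Just outside the limit and in the same gene, the authors' deposited tables listed 1190201 to 1190300, higher by 0.380 in ddb2-3, and 1189901 to 1190100, higher by 0.414 in cen.

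UVR8 (AT5G63860), the UV-B receptor, is the longest of the 6 genes at 5084 bp, and all of its regions lay inside it. Its regions fell into a part with gains and a part with losses, in the same order in both comparisons. The window chromosome 5, 25555401 to 25555500, at 20.3% of the gene, was higher by 0.250 in ddb2-3 and by 0.254 in cen in the authors' deposited tables. The next, 25555701 to 25555800 at 26.2%, was higher by 0.219 in ddb2-3 and by 0.198 in cen in the authors' deposited tables. Farther along, the authors' deposited table for ddb2-3 listed 25556801 to 25557100 as lower by 0.424, at 49.9%, and 25557501 to 25557700 as lower by 0.589, at 62.6% of the gene. The latter was the widest difference at any of the 6 loci in either comparison. At the same starts the authors' deposited table for cen listed single windows, 25556801 to 25556900, lower by 0.271, and 25557501 to 25557600, lower by 0.314. The listed regions differ in length between the lines there, so these values are not differences over the same bases. CG rows covered 9.88% of the gene and its flanks for ddb2-3 and 5.65% for cen. No CHG or CHH region was listed at UVR8.

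Gains and losses within a gene were found side by side. Counting regions whose midpoint lay in the gene, UVR2 and UVR8 held both a higher and a lower CG region for ddb2-3, 2 of the 4 loci with any. For cen all 5 loci with a region in the gene held both kinds. Among all protein-coding genes that held a CG midpoint, 38.7% held both kinds for ddb2-3 and 39.5% for cen, with no allowance for gene length. For ddb2-3 the 5 lower regions lay between 29.5% and 62.6% of the gene's length, and the 4 higher ones between 20.3% and 80.1%. For cen the 6 lower regions lay between 23.4% and 63.6%, and the 8 higher ones between 16.7% and 81.5%. At least 20% of the gene's length from either end lay 5 of 5 lower and 3 of 4 higher regions of ddb2-3, and 6 of 6 lower and 6 of 8 higher regions of cen. Over all protein-coding genes the share this far from the ends was 73.1% of lower and 74.5% of higher regions for ddb2-3, and 74.4% and 73.4% for cen.

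Inside these genes the median loss of ddb2-3 was wider than its median gain, though not every loss was wider. Its smallest loss, 0.128 at CRY2, was below its smallest gain, 0.219 at UVR8. The median of the 5 lower regions was 0.424 and that of the 4 higher regions 0.245, while over all protein-coding genes the medians were 0.247 and 0.246. Of the 5 lower regions, 4 (at UVR2, CRY2 and UVR8) were above 0.346, the 75th percentile of lower regions in all genes, and 1, at CRY2, was below the 25th percentile of 0.178. For cen the medians were 0.270 for the 6 lower and 0.193 for the 8 higher regions, beside 0.257 and 0.243 over all genes. Only the UVR2 loss of cen exceeded the 75th percentile of its class, 0.363. Below the 25th percentile lay 3 of the 8 higher regions of cen (0.176) and 1 of its 6 lower regions (0.184). These are regions of 4 genes for ddb2-3 and 5 for cen, several of them in the same gene, and no test was made.

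**Figure D2:**
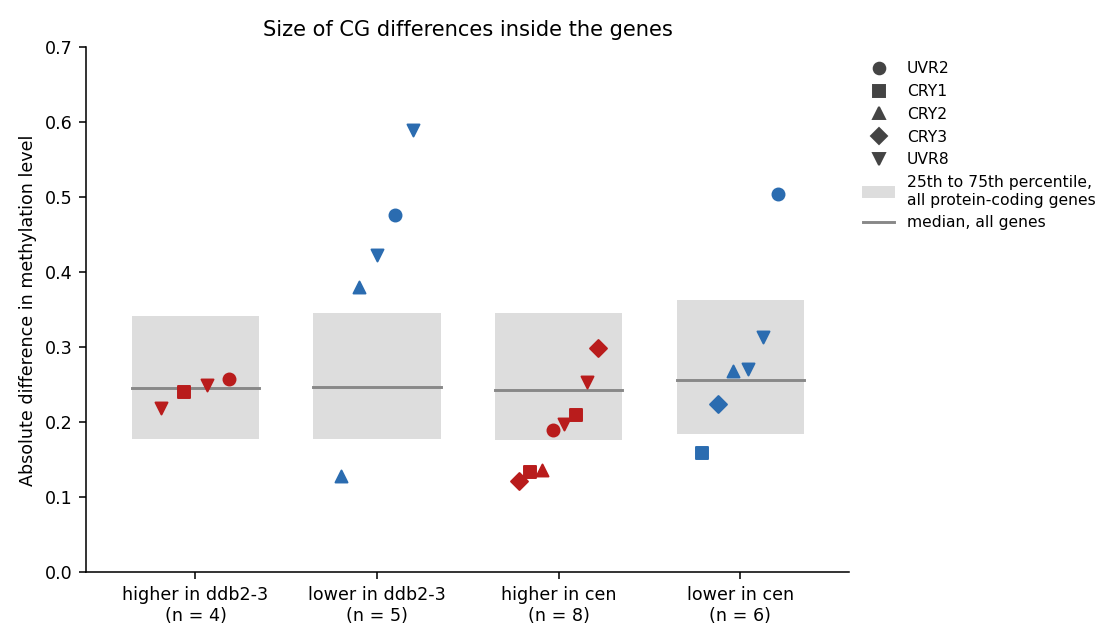
Absolute difference in methylation level of each CG region inside UVR2, CRY1, CRY2, CRY3 and UVR8 (points, 1 per region), by direction and line. Grey boxes run from the 25th to the 75th percentile of CG regions in all protein-coding genes, with the median as a line. Of the 5 lower regions of ddb2-3, 4 stand above the box.

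The number of CG regions at a gene rose with its length over all protein-coding genes, and the loci were read against genes of their own length. Of 7430 genes of 2 to 3 kb, the median was 1 region in either comparison, with a 25th percentile of 0 and a 75th of 2. UVR2, in that class, had 2 in each comparison, and CRY3 had 1 for ddb2-3 and 4 for cen. Genes of 3 to 4 kb had a median of 2 (1 to 3) in either comparison, beside 0 at UVR3 in both, 1 and 3 at CRY1 and 4 and 3 at CRY2 for ddb2-3 and cen. The 758 genes of 5 to 6 kb had a median of 3, and UVR8 had 4 in each. CRY2 for ddb2-3 and CRY3 for cen were therefore above the 75th percentile of their class, and UVR3 was below the 25th in both comparisons. The 4 regions of CRY2 for ddb2-3 include 2 in its flanks, and the 4 of CRY3 for cen include 1. Leaving out flank regions that lie in another gene gave 3 for each, with the class percentiles left as counted. For CRY2 that equals the 75th percentile of 3, and for CRY3 it stays above the 75th percentile of 2.

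**Figure D3:**
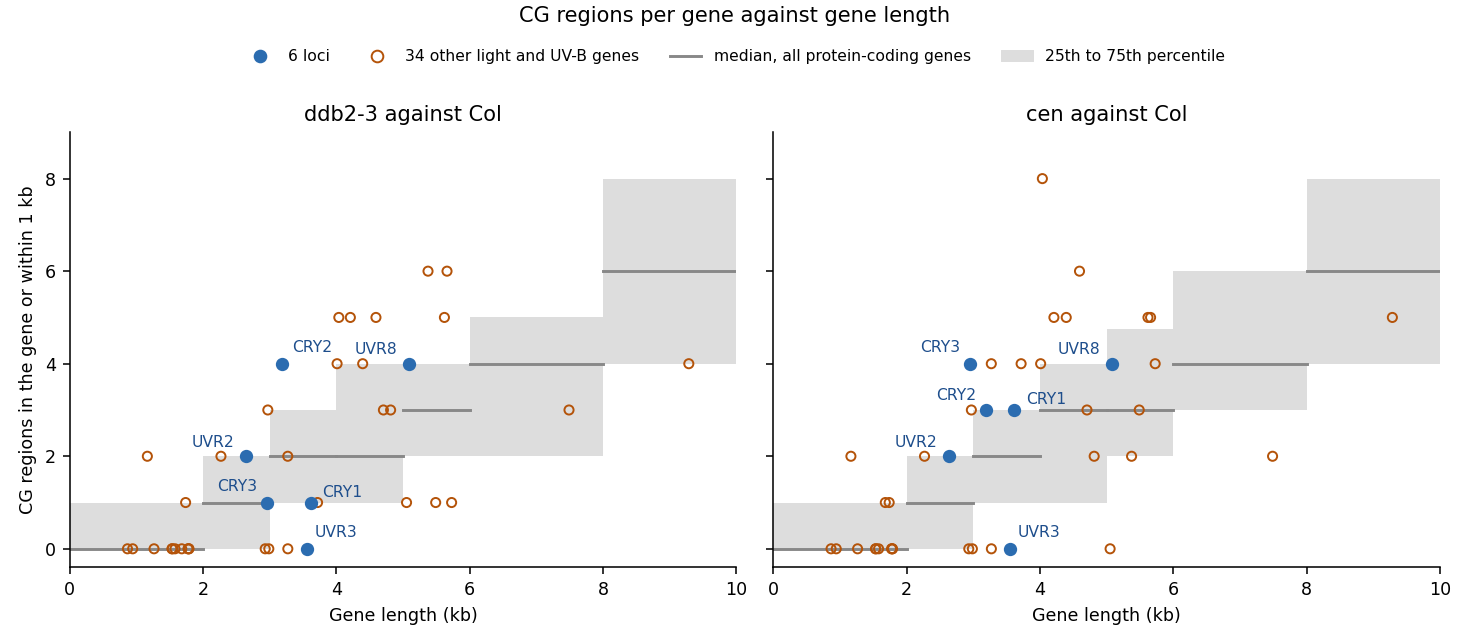
Number of CG regions in the gene or within 1 kb against gene length in kb, for ddb2-3 (left) and cen (right). Filled points are the 6 loci, open points are 34 other light and UV-B genes, and grey lines and boxes are the median and the 25th to 75th percentile of all protein-coding genes of each length class, with genes over 8 kb drawn as the last class. UVR3 stands at 0 in both panels.

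Around these receptors and repair enzymes stands a list of 34 other genes of light and UV-B signalling. Of these, 21 had a CG region for ddb2-3 and 21 for cen, not all of them the same genes. AT5G18190 had one for ddb2-3 alone and F3H for cen alone. A count of 21 of 34 is near the share over protein-coding genes of every length, 57.7% for ddb2-3 and 60.1% for cen. The median length on the list is 3271.5 bp. Of all genes of 3 to 4 kb, 78.6% had a CG region for ddb2-3 and 79.9% for cen. The list held 31 higher and 36 lower rows for ddb2-3 and 35 and 41 for cen. Their median absolute CG difference was 0.270 for ddb2-3 and 0.252 for cen. All 10 other light receptors had CG regions in both comparisons. Their lengths run from 2269 to 9287 bp, and for ddb2-3 the share of all genes with a CG region rose from 63.4% at 2 to 3 kb through 85.7% at 4 to 5 kb to 99.3% above 8 kb. For cen these shares were 66.4%, 87.6% and 98.95%. Among 8 genes grouped as partners of cryptochromes and UVR8, COP1 and its 4 partners of the SPA family had CG regions in both comparisons. These are genes of 3718 to 5729 bp, and of all genes of 3 to 4 kb and of 5 to 6 kb, 78.6% and 89.1% had one for ddb2-3 and 79.9% and 91.03% for cen. The shorter genes RUP1 and RUP2, which return UVR8 to its dimer, had none, nor had CIB1, a transcription factor that binds CRY2. Of 10 downstream genes, from the transcription factor HY5 to the flavonoid enzyme CHS, 1 had a CG region for ddb2-3 and 2 for cen. At HY5 the authors' deposited tables listed 1 window within 1 kb, chromosome 5, 3596001 to 3596100, lower by 0.247 in ddb2-3 and by 0.400 in cen. The downstream genes have a median length of 1756.5 bp against 4402 bp for the receptors. Genes of 1 to 2 kb had a CG region in 43.9% of cases for ddb2-3 and 46.6% for cen. MYB12 (3272 bp), PIF4 (2987 bp) and PIF5 (2933 bp) are longer, fall in classes with the higher shares given above, and had none. The regions of HY5 and F3H lay outside the gene, 927 and 628 bp away, and whether they lie in a neighbouring gene was not examined. The remaining 6 loci of the list have no symbol in the gene table and are given by locus alone. They were left out of the groups by role above, and 5 had a CG region for ddb2-3 and 4 for cen.

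The widest CG differences of this list were spread over receptors, a partner and a locus without a symbol in the gene table. For ddb2-3 the authors' deposited table gave the window of PHYA, a phytochrome, at chromosome 1, 3097001 to 3097100, as higher by 0.794. In SPA3, the region at chromosome 3, 5170601 to 5170900, was lower by 0.599 by the authors' deposited table. The same gene held a gain of nearly that size for ddb2-3, 5169601 to 5169900, higher by 0.594 in the authors' deposited table. SPA3 had 3 higher and 1 lower CG region for ddb2-3. ZTL, a blue-light receptor of the circadian clock, was lower by 0.661 in both comparisons at chromosome 5, 23243401 to 23243500, in the authors' deposited tables. For cen, PHYD, another phytochrome, was lower by 0.600 at chromosome 4, 9196201 to 9196300, and AT3G03940 by 0.546 at chromosome 3, 1018101 to 1018200, in the authors' deposited table. Outside CG, ZTL had a CHH region within 1 kb, chromosome 5, 23241101 to 23241200, higher by 0.115 in ddb2-3 and by 0.135 in cen in the authors' deposited tables. Lower non-CG regions of ddb2-3 lay within 1 kb of 3 loci without a symbol, in CHG at AT3G52740 (0.280) and AT3G44450 (0.177) and in CHH at AT3G13670 (0.127), in the authors' deposited tables. The ddb2-3 tables thus listed a CHG region at 2 and a CHH region at 2 of the 34 genes, beside 5.04% and 7.66% of all protein-coding genes. The cen tables listed a CHG region at 0 and a CHH region at 1 of the 34, beside 6.19% and 7.33%.

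**Figure D4:**
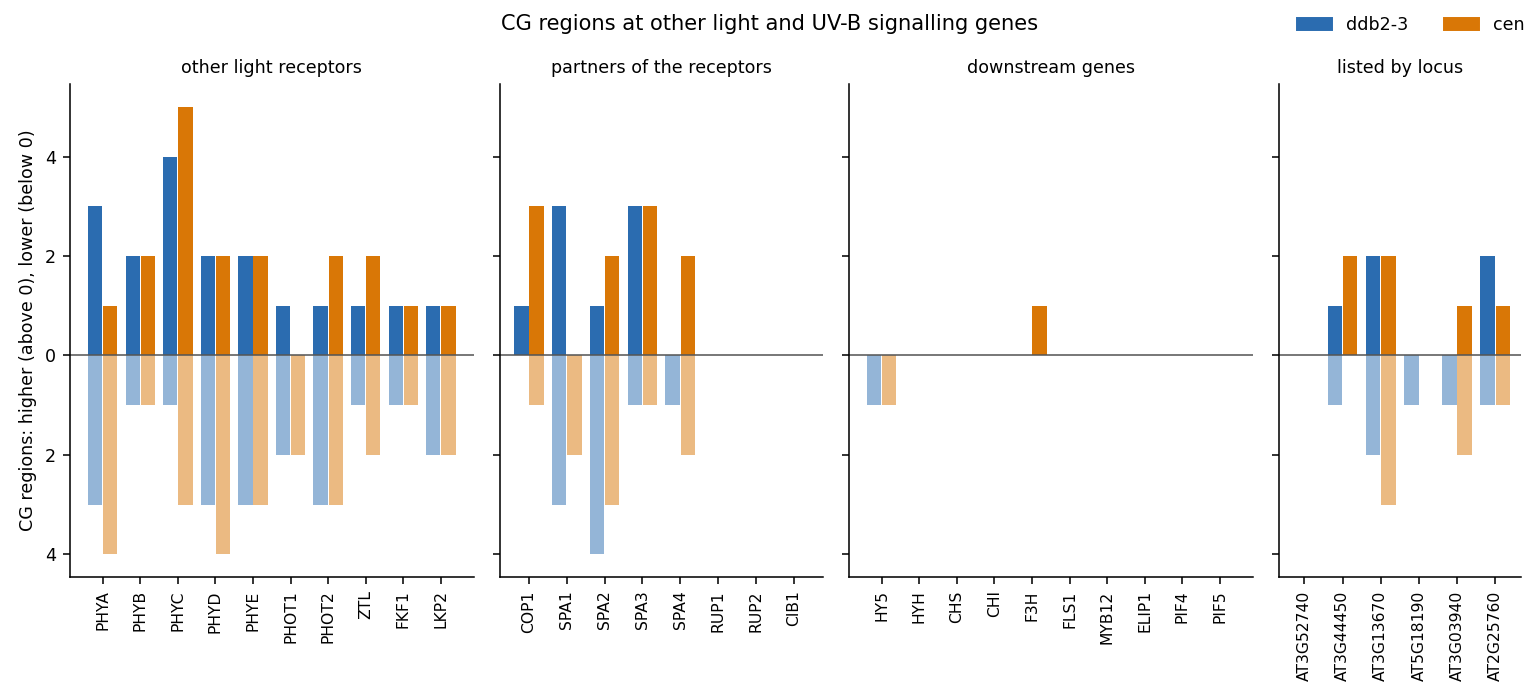
Number of CG regions per gene that were higher (bars above 0) or lower (pale bars below 0) than Col, for ddb2-3 and cen, at 34 other light and UV-B signalling genes grouped by role. The 6 loci without a symbol form a group of their own. All 10 other light receptors carry regions, and of the 10 downstream genes HY5 and F3H do, outside the gene.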

How the data were processed

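Bisulfite sequencing was made of 1 library of Col and 1 of ddb2-3. Reads were handled with Bismark, Bowtie2 2.0, Trim Galore, cutadapt and FastQC on TAIR10, per the submitters' processing notes. The region caller, its test and its coverage minimum are not given in the sources used here. Per region, the 6 deposited tables hold a score between -1 and 1, taken as the authors' difference in methylation level. All directions rest on the following inference. Values identical within 1.5e-06 at the same place in both comparisons were positive at 806 of 818 CG places, as when Col is methylated and both lines are not, so positive was read as Col higher. Identical values would also arise with both lines fully methylated and Col less so, and positive would then mean Col lower. Without levels, which case holds cannot be seen. Ties were few in CHG (4 of 7 positive) and CHH (5 of 5 positive). Overlapping CHG and CG rows of ddb2-3 had the same sign in 661 of 668 pairs and CHH and CHG rows in 186 of 188. For CHH and CG rows it was fewer, 110 of 133 for ddb2-3 and 134 of 148 for cen. The contexts were read alike, with CHH resting mainly on its overlap with CHG.

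Rows sharing at least 1 bp with a gene or its 1 kb flanks were counted, and position in the gene uses the row's midpoint. Genes came from the RefSeq table of TAIR10.1, whose build name differs, so none of its coordinates are printed. Of ddb2-3 CG midpoints, 78.4% lay in protein-coding genes, against 57.7% and 58.4% after moving them by 5000 bp either way. The table used here gives neither strand nor exons, so ends are named by coordinate. All 34 genes of the light list were matched by locus. The members and lists were chosen with earlier results of these data known. The loci named are the 6 members and, from the light list, genes with a CHG or CHH region and the 3 per comparison with the widest CG difference. Other genes of that list were named after their values were seen, and the length classes and the 20% limit on distance from gene ends were also chosen then. On simulated regions, the counting step was tested and matched a count by brute force at 500 of 500 genes. Python 3.11.15, NumPy 2.4.6, pandas 2.3.3 and matplotlib 3.10.9 were used. Alternatives were other flanks, a larger minimum difference, midpoints, merged neighbours and, chosen after seeing the data, flank regions in another gene left out.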

Additional observations from a re-analysis of the deposited data

Results flagged for a closer look

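At PHYE, a phytochrome gene of the light list, both comparisons listed the same CG window in opposite directions. In the authors' deposited tables, chromosome 4, 10043201 to 10043300, was higher by 0.170 in ddb2-3 and lower by 0.174 in cen. The same held at AT2G25760, a locus of that list without a symbol in the gene table. Its window at chromosome 2, 10985101 to 10985200, was lower by 0.366 in ddb2-3 and higher by 0.154 in cen in the authors' deposited tables. The difference between the lines was not tested at either place, since each has 1 library at most and no reads are given. Among overlapping regions of the same context at the 6 loci, 0 pairs had opposite directions.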

How the results depend on the processing

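The number of loci with a CG region stayed at 4 or 5 for ddb2-3 and at 5 for cen under all alternatives tried, and UVR3 had 0 CG regions in each. The CG rows at the 6 loci ranged from 9 to 15 for ddb2-3 around 12, and from 8 to 20 for cen around 16. The value of 8 came with an absolute difference of at least 0.2, under which the CHG and CHH rows of cen went from 2 to 0. With the gene span alone, the CHG and CHH rows went from 3 to 0 for ddb2-3 and from 2 to 0 for cen, because all lie outside the genes. CRY3 for ddb2-3 had 0 CG regions in the gene alone and 2 with a flank of 2 kb. Of 12 counts per locus and comparison, 5 moved by over 1.5 times with the larger minimum difference and 2 with each other flank. No paired analysis was possible because there is 1 library a line. The planned count of rows listed in both comparisons is not given, since both share Col. Depth is unknown, so no interval can be set on a region's value.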

Other observations

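The phytochromes, red and far-red light receptors, had CG regions of both directions in the gene or within 1 kb in both comparisons. At PHYE the higher regions of cen lay outside the gene. PHYC (AT5G35840) was the gene of the light list with the most CG regions for cen. PHYC had 4 higher and 1 lower CG region for ddb2-3, and 5 higher and 3 lower for cen. Genes of 4 to 5 kb had a median of 2 to 3 regions. In each comparison the higher ones of PHYC include the window 14012101 to 14012200, outside the gene. For cen they also include 14012701 to 14012800, likewise outside. In the authors' deposited tables, PHYC windows at chromosome 5, 14009201 to 14009300 and 14009501 to 14009600, were higher by 0.224 and 0.199 in ddb2-3 and by 0.178 and 0.198 in cen. The PHYC window 14008901 to 14009000 was lower in both, by 0.261 in ddb2-3 and by 0.266 in cen in the authors' deposited tables. Other PHYC windows, 14010401 to 14010500 and 14011001 to 14011100, were lower by 0.495 and 0.432 in the authors' deposited table for cen alone. PHYB (AT2G18790) had 2 higher and 1 lower region in each comparison. In the authors' deposited tables its lower window, chromosome 2, 8143501 to 8143600, was lower by 0.304 in ddb2-3 and by 0.371 in cen, and abutted or lay near higher regions of both. These genes were named after their values were seen, and the values are a description of these libraries.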
